A study of Mus musculus with 61 samples.

Results

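The expression of 10 genes for subunits of chromatin remodelling complexes was followed from the mouse oocyte to the embryonic stem cell. The members were the rows for *Smarca2*, *Smarca4*, *Smarca5*, *Smarcb1*, *Smarcc1*, *Arid1a*, *Arid1b*, *Arid2*, *Pbrm1* and *Brd7*, taken by symbol from a table of 18396 genes. All 10 were present and passed the filter on low values in every comparison. Of these, 9 encode subunits of the SWI/SNF complexes, also called BAF and PBAF. *Smarca5* encodes SNF2H, the motor of the ISWI remodellers, which is a related but separate family, so its values are described on their own.

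SWI/SNF complexes use the energy of ATP to slide or evict nucleosomes and so open DNA to transcription factors. Each complex holds a single ATPase, either BRG1 (from *Smarca4*) or BRM (from *Smarca2*). In canonical BAF and in PBAF the core includes SMARCB1 and SMARCC1. Canonical BAF carries ARID1A or ARID1B, whereas PBAF carries ARID2, PBRM1 and BRD7. Maternal BRG1 is known to be needed for the mouse embryo to pass the 2-cell stage, and embryonic stem cells are known to hold a form of the complex built on BRG1 and rich in SMARCC1.

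The study asked what the KRAB zinc-finger protein ZFP708 does in oocytes and early embryos, and RNA was sequenced from 61 libraries in 12 conditions. WT and KO germinal vesicle (GV) oocytes and zygotes had 7 libraries each, 2-cell embryos had 7 WT and 8 KO, and the remaining conditions had 3 each, namely WT and KO blastocysts, WT and KO mESCs, and control and FLAG-ZFP708 overexpressing (OE) E14 mESCs. The KO oocytes and embryos are labelled *Zfp708* maternal null, meaning that they came from mothers without functional *Zfp708*, and the KO mESCs were derived from maternal and zygotic mutant blastocysts. Each oocyte, zygote and 2-cell library held a single cell or embryo, whereas each blastocyst library held 10 pooled embryos. E14 is a long-established mESC line, and its OE cells were transfected and selected, so the effects of ZFP708 and of transfection cannot be told apart. The sources used here do not state from which animals, litters or lines the libraries of a group came, so p-values measure only the spread between these libraries.

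Recovered reads in genes ranged from 2486334 to 4844699 in the single-cell and single-embryo libraries and from 12469548 to 19596785 in the blastocyst and mESC libraries. Every member had reads in every library, with 7 reads as the lowest value. *Zfp708* itself was 6.67 ± 0.345 (SD, n = 3) normalized counts in control E14 cells and 654 ± 107 (SD, n = 3) in OE cells. It does not check the KO label, because the mutant allele, from a single founder line, is a small frame-shifting deletion and its RNA was still found in most KO libraries (zygote means of 120 in WT and 206 in KO). The 8 KO 2-cell libraries stood apart from the WT 2-cell libraries. Their summed level of 9 cumulus and granulosa cell markers ran from 31.5 to 9135 normalized counts, above the WT 2-cell range of 0 to 9.94 in all 8. GV oocytes and zygotes of either genotype held 43.1 to 84.7, a range that KO 2-cell libraries 5 (31.5) and 8 (71.0) did not exceed. The highest sum was in KO 2-cell library 7. That library listed *Zfp708* at 0, while KO 2-cell library 6 listed it at 469. The titles of KO 2-cell libraries 7 and 8 share a library code and a replicate number. Among the mESC libraries, the 3 E14 controls differed from each other by a mean chi-square of 1.07 to 1.12 per gene, where 1 is sampling noise alone. OE libraries 1 and 2 differed by 1.25, KO mESC libraries 2 and 3 by 1.68 and WT mESC libraries 1 and 3 by 3.15, and WT mESC library 2 stood apart from its group by 32.9 and 33.0.

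In the mm9 build that the files use, *Smarca2* lies on chr19:26679650-26852811 (plus strand), *Smarca4* on chr9:21420613-21508674 (plus), *Smarcb1* on chr10:75359514-75384362 (minus) and *Smarcc1* on chr9:110034541-110142682 (plus). The ARID genes lie on chr4:133234923-133312684 (*Arid1a*, minus), chr17:4994332-5347656 (*Arid1b*, plus) and chr15:96117953-96235894 (*Arid2*, plus). *Pbrm1* lies on chr14:31832324-31934778 (plus), *Brd7* on chr8:90854938-90886093 (minus) and *Smarca5* on chr8:83222406-83263396 (minus). All are protein-coding, and no exon of theirs overlaps that of another gene in the annotation.

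The promoters of the alternative ATPase genes are shown because the log2 ratio of their RNA levels was below 0 in every GV oocyte and above 0 in every blastocyst pool. These are the 250 bases before the transcription start from RefSeq, GRCm38.p6 build, plus strand, with CG dinucleotides in capitals.
Smarca4, chr9:21615919-21616168: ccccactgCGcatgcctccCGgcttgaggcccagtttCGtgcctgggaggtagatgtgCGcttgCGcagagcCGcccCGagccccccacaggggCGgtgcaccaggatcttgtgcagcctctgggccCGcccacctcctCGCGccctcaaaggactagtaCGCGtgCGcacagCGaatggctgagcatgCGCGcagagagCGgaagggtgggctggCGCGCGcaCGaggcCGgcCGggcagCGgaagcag
Smarca2, chr19:26604910-26605159: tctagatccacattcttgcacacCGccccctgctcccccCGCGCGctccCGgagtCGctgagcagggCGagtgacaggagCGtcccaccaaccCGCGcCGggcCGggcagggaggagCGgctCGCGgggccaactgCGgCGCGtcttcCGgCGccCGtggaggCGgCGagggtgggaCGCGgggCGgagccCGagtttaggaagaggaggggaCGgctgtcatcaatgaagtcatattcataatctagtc

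Both windows were rich in CG, with 25 in *Smarca4* and 28 in *Smarca2*, against a median of 6 over 32851 RefSeq promoter windows of this length. RefSeq windows were found for 9 of the 10 members, with 2 for *Arid1a* and none used for *Arid2*. The GC box GGGCGG, which contains a CG and was searched on both strands, was present in 9 of these 10 windows and in 32.7% of all windows. TATAAA, also searched on both strands, was in 0 of the 10 and in 12.4% of all windows.

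*Smarca2*, which encodes the ATPase BRM, was an oocyte and early embryo RNA in these data. The lowest, median and highest normalized counts were 176, 200.1 and 326 in WT GV oocytes, 183, 219 and 303 in WT zygotes, and 92.8, 207 and 261 in WT 2-cell embryos. The 3 WT blastocyst pools held 9.17 to 15.9, and the 3 WT mESC libraries held 10.4, 10.9 and 12.8. All blastocyst and mESC libraries thus lay below all oocyte, zygote and 2-cell libraries. Values in control E14 cells were lower still, at 1.45, 1.75 and 2.15. In limma fits on log2(normalized count + 1), the WT 2-cell to blastocyst change was -3.87 (SE 0.28, adjusted p = 2.2e-08), a 16.1-fold lower mean. The KO change was -4.01 (SE 0.49, adjusted p = 6.1e-05), and -3.75 without KO 2-cell libraries 6 and 7. Rescaling within the comparison moved the median of all genes by up to 0.26 in WT and 0.29 in KO, and the *Smarca2* change was then -3.60 and -3.69. Neither GV oocytes to zygotes (0.11, adjusted p = 0.53) nor zygotes to 2-cell embryos (-0.27, adjusted p = 0.20) gave a call in WT. In bulk libraries, fewer cells of a type and less RNA per cell cannot be told apart. The single-embryo libraries were amplified and had a different preparation from the mESC libraries. The preparation of the blastocyst pools is not given in the sources used here. Stage and library preparation therefore cannot be told apart across the 2-cell to blastocyst step or the blastocyst to mESC step, for any of these genes.

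*Smarca4*, which encodes BRG1, had its lowest WT mean in GV oocytes and its highest in mESCs. Its lowest, median and highest values were 42.7, 55.1 and 83.0 in WT GV oocytes, 71.8, 92.1 and 134 in WT zygotes, and 114, 136 and 314 in WT 2-cell embryos. The highest 2-cell value, in library 7, was well above the next at 185. It was 98.1, 111 and 112 in WT blastocysts and 380, 385 and 394 in WT mESCs, and no mESC library overlapped any blastocyst pool. It rose from GV oocyte to zygote by 0.71 (SE 0.18, adjusted p = 0.0014), from zygote to 2-cell by 0.65 (SE 0.21, adjusted p = 0.0078) and from blastocyst to mESC by 1.84 (SE 0.09, adjusted p = 9.6e-07). The 2-cell to blastocyst difference of -0.52 did not pass (adjusted p = 0.10).

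**Figure D1:**
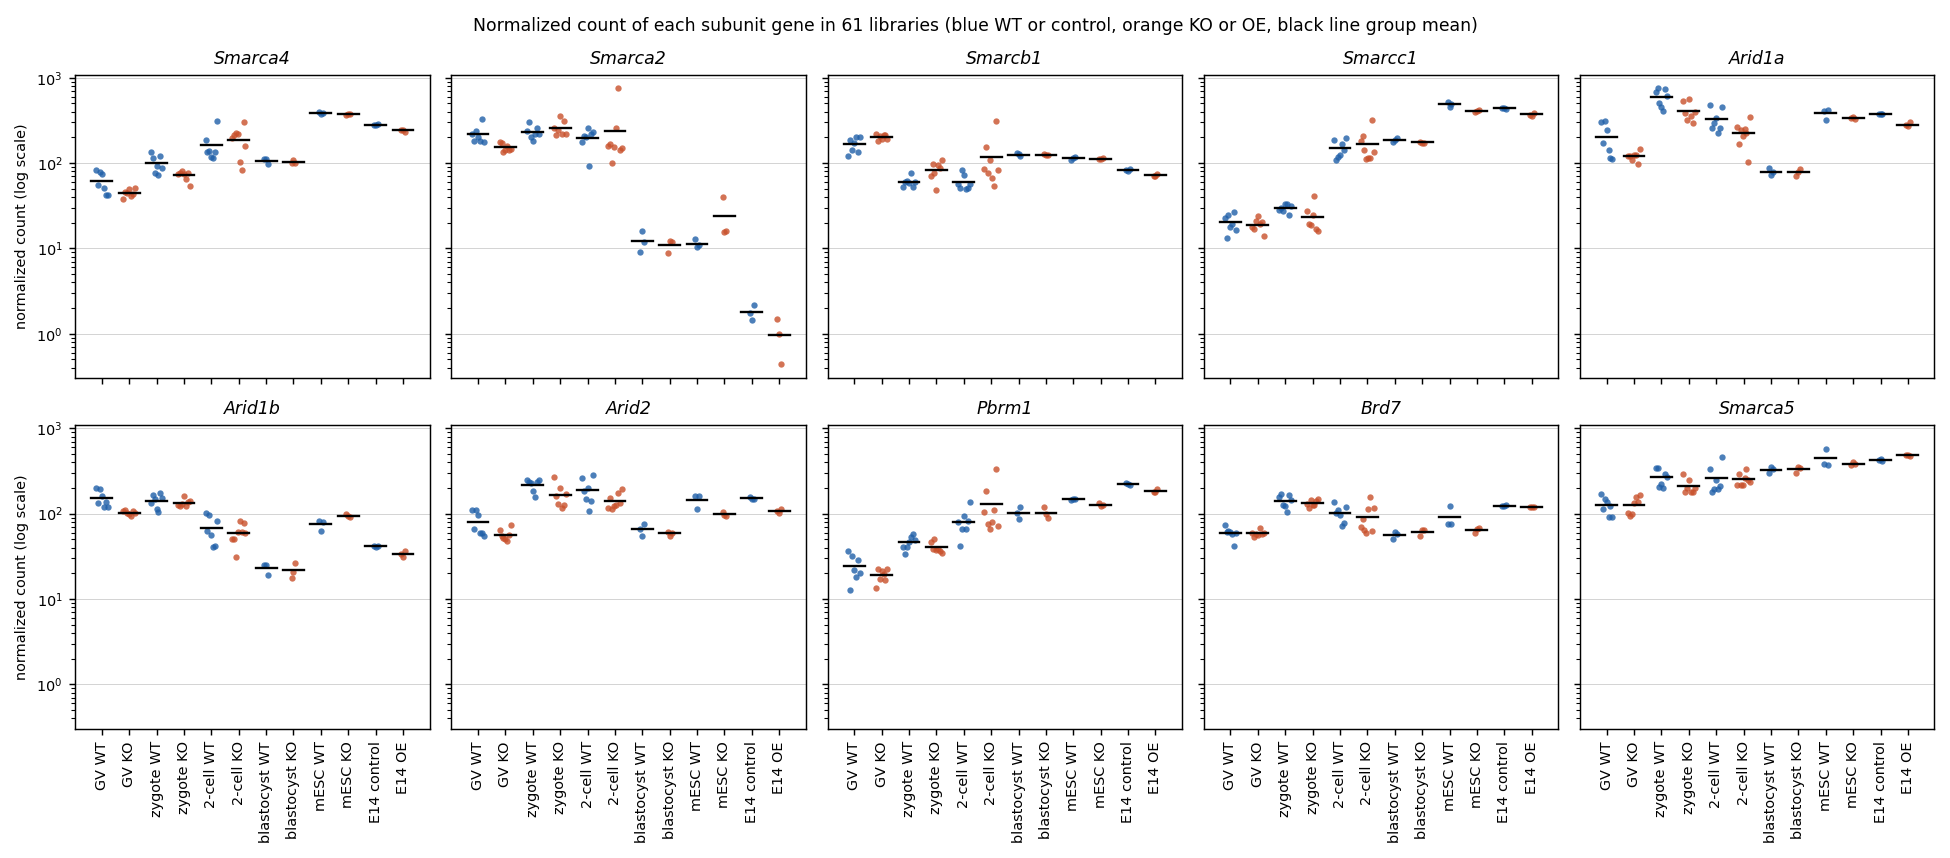
Normalized count (log axis) of each gene in each of the 61 libraries by condition. Points are libraries (blue WT or control, orange KO or OE) and black lines are group means. *Smarca2* stays between 92.8 and 752 up to the 2-cell stage and is at most 39.7 in blastocysts and mESCs, whereas *Smarcc1* runs from a mean of 18.9 in KO GV oocytes to 486 in WT mESCs.

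Because the exon models of these genes have similar lengths (6414 and 6475 bases), their levels can be compared per length. In WT GV oocytes *Smarca2* had 34.0 ± 8.25 (SD, n = 7) normalized counts per kb of exon and *Smarca4* had 9.41 ± 2.63 (SD, n = 7). In WT mESCs these levels were 1.78 ± 0.195 and 59.7 ± 1.11 (SD, n = 3 each). The log2 ratio of *Smarca4* to *Smarca2* was below 0 in all GV oocytes and zygotes of either genotype, above 0 in 3 of 7 WT and 6 of 8 KO 2-cell embryos, and above 0 in every blastocyst and mESC library. Its WT means were -1.84 ± 0.52 (SD, n = 7) in GV oocytes, -1.23 ± 0.28 (SD, n = 7) in zygotes, -0.31 ± 0.58 (SD, n = 7) in 2-cell embryos, 3.05 ± 0.38 (SD, n = 3) in blastocysts and 4.97 ± 0.12 (SD, n = 3) in mESCs. Linear ratios at those means went from 0.28 to 31.4. The 3 WT steps up to the blastocyst passed a two-sided exact permutation test with Benjamini-Hochberg adjustment over 24 ratio tests (adjusted p = 0.021, 0.017 and 0.022). From WT blastocyst to mESC the rise of 1.93 could not pass, since 3 against 3 libraries cannot go below 0.10. In KO the GV oocyte to zygote difference was -0.08 (adjusted p = 0.65), and the ratio rose by 1.70 from zygote to 2-cell (adjusted p = 0.026) and by 3.25 to the blastocyst (adjusted p = 0.021). Leaving out any blastocyst pool left 2 in the group and gave an adjusted p of 0.067 in WT and 0.11 in KO, with rises of 3.14 to 3.51 and 3.13 to 3.32. In WT every blastocyst pool lay above every 2-cell embryo, so the permutation test gave the smallest p that 7 against 2 libraries allow. The check therefore cannot decide whether the WT rise holds.

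**Figure D2:**
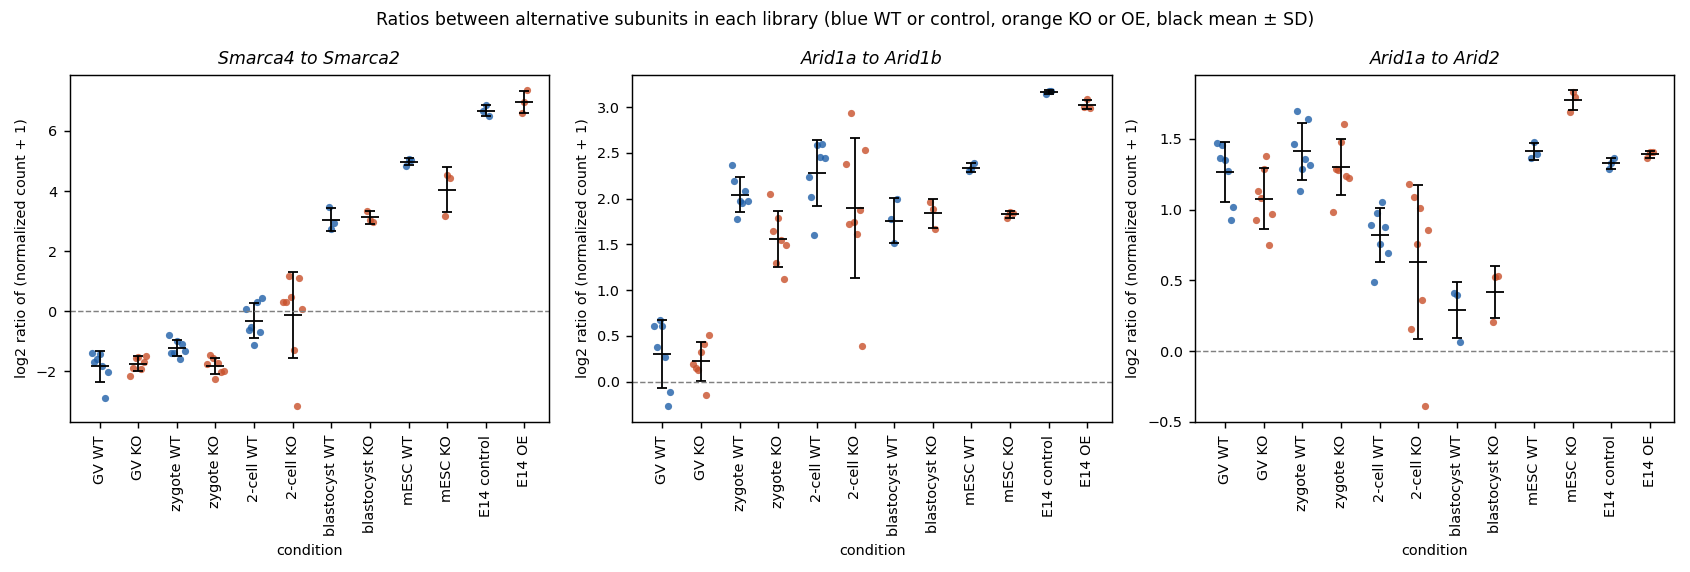
Log2 ratio of (normalized count + 1) between alternative subunits, 1 point per library, with the mean and SD of each condition in black and equal levels at the dashed line. The *Smarca4* to *Smarca2* ratio climbs from -1.84 in WT GV oocytes to 4.97 in WT mESCs, the *Arid1a* to *Arid1b* ratio rises at the zygote, and the *Arid1a* to *Arid2* ratio is lowest in blastocysts.

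The shared core subunits differed from each other in timing. *Smarcb1*, which encodes the SNF5 subunit that contacts the nucleosome, had lowest, median and highest values of 120, 170 and 203 in WT GV oocytes and 52.4, 59.9 and 77.0 in WT zygotes, without overlap. It fell by 1.42 (SE 0.14, adjusted p = 9.0e-09) in WT and by 1.3 (SE 0.14, adjusted p = 1.5e-08) in KO, and it was the only member to fall at that step in either genotype. WT 2-cell embryos stayed at 50.0 to 82.4, a difference of -0.02 (adjusted p = 0.90). The WT blastocyst pools held 121, 128 and 130, a rise of 1.08 (SE 0.21, adjusted p = 3.4e-04). In KO that step was 0.32 (adjusted p = 0.58), with KO 2-cell embryos spread from 54.3 to 310.

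*Smarcc1*, which encodes the BAF155 scaffold, was low in the oocyte. Its lowest, median and highest values were 13.3, 19.3 and 26.8 in WT GV oocytes, 24.5, 29.9 and 33.3 in WT zygotes and 107, 143 and 198 in WT 2-cell embryos. No 2-cell embryo overlapped any zygote. The WT zygote to 2-cell rise was 2.26 (SE 0.16, adjusted p = 8.1e-11), a 5.00-fold higher mean, and the KO rise was 2.74 (SE 0.27, adjusted p = 6.9e-08). Both were the largest changes among the 10 genes at that step. The WT mESC values of 451, 490 and 518 lay above the blastocyst values of 178, 187 and 198, a rise of 1.37 (SE 0.09, adjusted p = 4.2e-06).

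The ARID subunits, which set the type of complex, peaked in the zygote or before. *Arid1a* had lowest, median and highest values of 111, 173 and 309 in WT GV oocytes, 403, 609 and 752 in WT zygotes and 226, 292 and 484 in WT 2-cell embryos. The WT blastocysts held 72.6, 79.1 and 87.0 and the WT mESCs 316, 413 and 421. It rose by 1.64 (SE 0.22, adjusted p = 1.2e-06), fell by 0.86 (SE 0.19, adjusted p = 3.0e-04), fell by 1.99 (SE 0.24, adjusted p = 3.2e-06) and rose by 2.25 (SE 0.14, adjusted p = 2.6e-06) over the 4 WT steps in turn. The 4 KO steps had the same directions and all passed, at 1.72, -0.88, -1.44 and 2.09.

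*Arid1b*, the alternative to *Arid1a* in canonical BAF, did not share the zygotic rise in WT. It went from a median of 138 (119 to 199.8) in GV oocytes to 147 (104 to 174) in zygotes, a difference of -0.10 (adjusted p = 0.58). In KO it rose by 0.38 (SE 0.10, adjusted p = 0.0018) at that step, a call lost with the spread estimated over all 12 conditions (adjusted p = 0.055). It fell from zygote to 2-cell by 1.09 (SE 0.21, adjusted p = 7.5e-05) in WT and by 1.22 (SE 0.21, adjusted p = 5.0e-05) in KO. It then fell by 1.47 (SE 0.31, adjusted p = 6.6e-04) to the WT blastocysts at 19.1, 24.8 and 24.8. The log2 ratio of *Arid1a* to *Arid1b* thereby rose from 0.30 ± 0.37 (SD, n = 7) to 2.04 ± 0.19 (SD, n = 7) between WT GV oocytes and zygotes, and from 0.22 ± 0.22 to 1.56 ± 0.31 (SD, n = 7 each) in KO (exact permutation test, adjusted p = 0.0047 each). No later step of this ratio passed in either genotype, but without WT 2-cell library 3 the zygote to 2-cell rise of 0.35 (adjusted p = 0.030) and the 2-cell to blastocyst fall of 0.63 (adjusted p = 0.026) both passed.

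*Arid2*, the ARID subunit of PBAF, rose with *Arid1a* at the zygote. It had lowest, median and highest values of 54.5, 66.8 and 112 in WT GV oocytes and 157, 232 and 249 in WT zygotes, without overlap, a rise of 1.49 (SE 0.17, adjusted p = 1.1e-07). It was retained longer than *Arid1a*: the WT 2-cell values of 108, 183 and 280 did not differ from the zygote by the test (-0.27, adjusted p = 0.21). WT blastocysts held 54.9, 65.2 and 75.8, a fall of 1.46 (SE 0.27, adjusted p = 2.4e-04). The *Arid1a* to *Arid2* log2 ratio went from 1.41 ± 0.20 in WT zygotes to 0.82 ± 0.19 in 2-cell embryos (SD, n = 7 each, exact permutation test, adjusted p = 0.0047) and 0.29 ± 0.20 in blastocysts (SD, n = 3, adjusted p = 0.022). The KO zygote to 2-cell fall of 0.67 also passed (adjusted p = 0.020). Leaving out any WT blastocyst pool gave an adjusted p of 0.067 for the second of these WT steps, with changes of -0.59, -0.58 and -0.42. Every WT blastocyst pool lay below every WT 2-cell embryo in this ratio. The permutation test thus gave the smallest p that the 2 remaining pools allow, and this check cannot decide whether the fall holds.

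*Pbrm1*, which encodes the bromodomain protein BAF180 of PBAF, rose at each of the first 2 WT steps. Its lowest, median and highest values were 12.6, 22.0 and 36.8 in GV oocytes, 33.7, 46.4 and 57.7 in zygotes and 42.3, 78.8 and 136 in 2-cell embryos. The rises were 0.95 (SE 0.20, adjusted p = 3.0e-04) and 0.74 (SE 0.21, adjusted p = 0.0032), with overlapping ranges. WT blastocysts held 86.1, 102 and 120, 0.41 higher (adjusted p = 0.21), a difference that passed with TMM rescaling (0.70, adjusted p = 0.044). WT mESCs held 146, 147 and 149, a rise of 0.53 (SE 0.13, adjusted p = 0.0058) that was lost with the spread of all 12 conditions (adjusted p = 0.18).

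*Brd7*, another bromodomain subunit of PBAF, instead peaked in zygotes, going from 41.4, 60.5 and 73.1 (lowest, median and highest) in WT GV oocytes to 104, 144 and 168, without overlap. That rise was 1.23 (SE 0.14, adjusted p = 8.6e-08). The fall of 0.47 to the 2-cell stage (adjusted p = 0.013) was lost under 4 alternatives, namely both rescalings within the comparison (adjusted p = 0.060 and 0.053), edgeR (0.092) and DESeq2 (0.062), over a range of 0.0045 to 0.092 for all alternatives. *Brd7* fell by 0.83 (SE 0.22, adjusted p = 0.0040) to the blastocyst and rose by 0.65 (SE 0.20, adjusted p = 0.015) to WT mESCs. The latter call was lost without WT blastocyst pool 1 (0.57, adjusted p = 0.063), and the rise was 0.42 without WT mESC library 2. *Brd7* had the smallest span of the 10 genes, with the highest condition mean 2.51-fold above the lowest, and *Smarca2* the largest at 266-fold.

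*Smarca5*, the ISWI ATPase, rose from 90.2, 124 and 171 (lowest, median and highest) in WT GV oocytes to 201, 271 and 347 in zygotes, without overlap. The WT rise was 1.11 (SE 0.16, adjusted p = 3.4e-06) and the KO rise 0.74 (SE 0.15, adjusted p = 1.1e-04). It then stayed within overlapping ranges through the 2-cell stage (181 to 462) and the blastocyst (299 to 351). The WT blastocyst to mESC rise of 0.42 (adjusted p = 0.048) rested on WT mESC library 2 at 570 beside 374 and 386. Without that library it was 0.22 (adjusted p = 0.076), and it was also lost without WT blastocyst pool 1 (adjusted p = 0.15), 2 (0.060) or 3 (0.099) and under 7 other settings (adjusted p up to 0.15). A related feature, *Smarca5-ps*, has its own row, and how shared reads were counted could affect the *Smarca5* value.

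**Figure D3:**
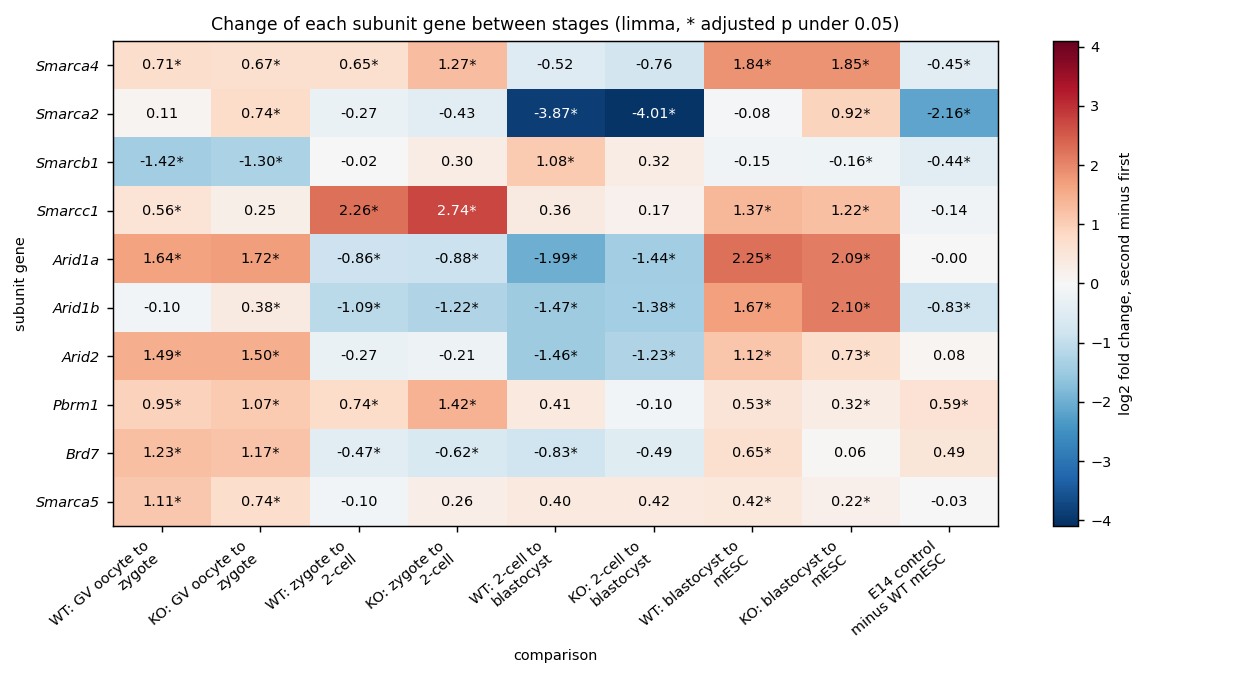
Fitted log2 change (second minus first condition) of each gene at the 4 steps in WT and KO and between E14 control and WT mESCs, with an asterisk at an adjusted p under 0.05 (limma). The deepest blue cells are *Smarca2* from 2-cell embryo to blastocyst (-3.87 in WT, -4.01 in KO), and *Smarcb1* holds the only falls called in the first 2 columns (-1.42 and -1.3).

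At the WT GV oocyte to zygote step 7 members rose and 1 fell, and 64.9% of all genes tested were called. Because values are scaled within each library, rises and falls at this and other steps are relative to the other RNAs. The amount of RNA per cell or embryo was not measured. The members' median change was 0.83 against 0.02 over all genes. At the WT zygote to 2-cell step 3 rose and 3 fell (75.1% of all genes), with medians of -0.18 and -0.10. From WT 2-cell to blastocyst 1 rose and 5 fell (65.8%), with medians of -0.67 and -0.07. With size factors computed within that comparison 2 rose and 5 fell, and with TMM factors 4 rose and 5 fell. From WT blastocyst to mESC 8 rose and 0 fell (81.5%), with medians of 0.89 and 0.15, and with either rescaling 7 rose and 1 fell. The corresponding KO counts were 8 higher and 1 lower (64.4%), 3 and 3 (66.2%), 0 and 4 (37.4%, 1 and 4 with TMM), and 8 and 1 (84.5%). The number of calls among the members was therefore close to that among all genes at most steps, and only the sizes and directions are described. The WT and KO steps are separate sets of libraries. Of the KO blastocyst to mESC calls, *Smarca2* (0.92, adjusted p = 0.036) was lost without KO blastocyst pool 1, 2 or 3 (adjusted p = 0.089, 0.074 and 0.054) and was 0.50 without KO mESC library 1. *Smarca5* (0.22) was lost without KO mESC library 2 or 3 (adjusted p = 0.12 and 0.076). *Smarcb1* (-0.16) was lost without KO mESC library 1, 2 or 3 or blastocyst pool 2 (adjusted p = 0.056 to 0.11), and *Pbrm1* (0.32) without KO mESC library 1, 2 or 3 or blastocyst pool 2 or 3 (0.056 to 0.085). Both rescalings also ended the *Smarca2* call (0.059 and 0.057, and 0.0503 without a filter), the *Smarca5* call (0.34 and 0.28) and the *Pbrm1* call (0.13 each), and edgeR and DESeq2 ended the last 2 as well. The spread of all 12 conditions ended the *Smarca5*, *Smarcb1* and *Pbrm1* calls (adjusted p = 0.47, 0.66 and 0.43). In WT, *Smarcb1* was lower at this step with both rescalings, edgeR and DESeq2 (-0.23 to -0.26, adjusted p = 0.017 to 0.043). At the earlier KO steps, leaving out KO 2-cell library 6 added *Smarca2* from zygote to 2-cell (-0.71, adjusted p = 0.0077) and *Smarca4* from 2-cell to blastocyst (-0.91, adjusted p = 0.041). DESeq2 also added the *Smarca2* call (-0.56, adjusted p = 0.015), the spread of all 12 conditions added *Smarca4* (adjusted p = 0.0052) and *Brd7* (0.026) from 2-cell to blastocyst, and TMM added *Smarca5* there (0.75, adjusted p = 0.037). The KO fall of *Brd7* from zygote to 2-cell was lost with edgeR (adjusted p = 0.091) and DESeq2 (0.063). At the WT 2-cell to blastocyst step, leaving out WT 2-cell library 7 added *Smarca5* (0.55, adjusted p = 0.016) and *Smarcc1* (0.44, adjusted p = 0.048), both rescalings also added *Smarcc1* (0.50 and 0.65, adjusted p = 0.049 and 0.014), and edgeR did so too (0.53, adjusted p = 0.039). TMM also added *Smarca5* (0.69, adjusted p = 0.030) besides *Pbrm1*.

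The remaining genes of these complexes moved in both directions. Of 21 other BAF and PBAF subunit genes, 15 were tested at the WT GV oocyte to zygote step, of which 5 rose and 6 fell, with a median of 0.09. At the WT zygote to 2-cell step 6 rose and 6 fell of 17. Of these, *Dpf2*, a histone-reading subunit, rose from 6.38 ± 3.70 to 75.0 ± 18.0 and *Ss18*, a canonical BAF subunit, fell from 172 ± 9.92 to 39.6 ± 13.8 (SD, n = 7 each). The *Ss18* level was 274 ± 26.3 (SD, n = 3) in WT blastocysts, a rise of 2.83 (adjusted p = 6.3e-07). *Smarcd1*, which encodes BAF60A, rose from 19.4 ± 0.80 in WT blastocysts to 177 ± 7.04 in WT mESCs (SD, n = 3 each). Of 12 ISWI complex genes, 11 were tested from WT GV oocyte to zygote and 9 rose, among them *Bptf*, the NURF scaffold, from 216 ± 47.1 to 501 ± 82.5 (SD, n = 7 each). Of 17 other SNF2 family ATPases 10 rose and 0 fell at that step, and 16 rose from WT blastocyst to mESC. Over all 11609 genes tested from WT GV oocyte to zygote, 3744 rose and 3795 fell. The counts were 4344 and 4647 of 11975 from WT zygote to 2-cell, and 5456 and 4661 of 12418 from WT blastocyst to mESC. *Chd1*, a remodeller of active chromatin, rose from 32.2 ± 5.00 to 320.2 ± 66.8 (SD, n = 7 each) between WT zygotes and 2-cell embryos.

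KO GV oocytes had lower levels of 2 of these genes. *Arid1b* had lowest, median and highest values of 119, 138 and 199.8 in WT and 94.1, 102 and 110 in KO oocytes, without overlap. *Smarca2* had 176, 200.1 and 326 in WT and 134, 146 and 177 in KO, the ranges touching only at the edge. Both were lower in KO, by limma with adjustment over all genes (*Arid1b* -0.53, SE 0.12, adjusted p = 0.021, and *Smarca2* -0.48, SE 0.13, adjusted p = 0.038). That was 2 of the 10 members, against 3.64% of all genes tested. An unadjusted p under 0.05 was found for 6 of 10 members and for 2663 of all 11775 genes tested. The median of the members was -0.34, and that of all genes -0.00. *Arid1a* (-0.62, adjusted p = 0.079), *Arid2* (-0.43, adjusted p = 0.13) and *Smarca4* (-0.39, adjusted p = 0.13) did not pass, nor did *Smarcb1* at 0.31 higher (adjusted p = 0.13). The *Smarca2* call was lost without WT oocyte 1, 3 or 4 or KO oocyte 3, 4, 5, 6 or 7 (adjusted p = 0.058 to 0.087), while that of *Arid1b* held without each of the 14 oocytes. *Arid1a* passed with DESeq2 (-0.75, adjusted p = 0.019) and without WT oocyte 6 or 7 (-0.73 and -0.74, adjusted p = 0.036 and 0.026), and *Smarca4* without WT oocyte 6 (-0.47, adjusted p = 0.049). With the spread estimated over all 12 conditions both calls were lost (*Arid1b* adjusted p = 0.15, *Smarca2* 0.52), and without a filter that of *Smarca2* was (0.067). Of the other lists, 0 of 15 BAF and PBAF subunits and 0 of 11 ISWI genes were called (medians of -0.01 and -0.05). Of the 17 other SNF2 family ATPases 1 was lower, and their median of -0.36 was close to that of the members.

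In zygotes 1 of 10 members was called, against 14.6% of all genes. *Arid1a* had lowest, median and highest values of 403, 609 and 752 in WT and 296, 390 and 558 in KO, with overlapping ranges. It was lower in KO by 0.54 (SE 0.16, adjusted p = 0.026). The call was lost without WT zygote 1, 2, 6 or 7 or KO zygote 3 or 6 (adjusted p = 0.051 to 0.069), without a filter (0.054) and with the spread of all 12 conditions (0.090). *Smarca4* had 71.8, 92.1 and 134 in WT and 54.2, 75.1 and 81.8 in KO, a difference of -0.44 that missed the threshold (adjusted p = 0.053) and passed with both rescalings (0.039 and 0.046), edgeR (0.032), DESeq2 (0.011), a filter at 10 (0.043) and without WT zygote 3 (0.039) or 5 (0.022). *Smarcb1* was 0.43 higher (adjusted p = 0.071), and passed with DESeq2 (0.43, adjusted p = 0.045) and without WT zygote 5 (0.49, adjusted p = 0.040) or KO zygote 4 (0.55, adjusted p = 0.011). *Arid2* (-0.42, adjusted p = 0.085) passed without WT zygote 5 (-0.50, adjusted p = 0.037) or KO zygote 1 (-0.55, adjusted p = 0.015), and *Smarcc1* (-0.39, adjusted p = 0.18) without KO zygote 5 (-0.53, adjusted p = 0.046). The summed level of 8 oocyte markers was 23966 to 28023 in WT and 15846 to 20895 in KO zygotes, without overlap. Of these 8 markers 3 were called lower and 0 higher, with a median change of -0.14. *Mos* had a mean of 1281 in WT and 93.0 in KO. The part of these marker RNAs in the members' differences was not tested.

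The size of the GV oocyte to zygote change depended on the genotype for 1 of 10 members. *Smarca2* rose by 0.74 in KO (SE 0.12, adjusted p = 1.1e-05), from 134, 146 and 177 to 214, 246 and 361 without overlap, and changed by 0.11 in WT. The interaction was 0.63 (SE 0.19, adjusted p = 0.035), with 6.8% of all genes called. It was lost without WT GV oocyte 3 or 6, KO GV oocyte 3, 4, 6 or 7, WT zygote 3 or 4, or KO zygote 4 or 6 (adjusted p = 0.052 to 0.065). *Arid1b* had an interaction of 0.48 (adjusted p = 0.095). None of the 10 members had an adjusted p under 0.05 for the interaction at the zygote to 2-cell step, where 1.44% of all genes were called, or at the 2-cell to blastocyst step, where 0.0% were. The members with an unadjusted p under 0.05 were 2, 0 and 0 at the 3 steps. Over all genes tested these counts were 2533 of 12411, 2162 of 13829 and 362 of 15182.

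In 2-cell embryos 0 of 10 members were called in limma (0.708% of all genes). An unadjusted p under 0.05 was found for 1 member and for 1878 of all 12578 genes tested. DESeq2 and edgeR also called 0. *Smarcb1* had 50.0, 56.2 and 82.4 in WT and 54.3, 83.2 and 310 in KO, 0.76 higher (SE 0.31, adjusted p = 0.26). *Arid1a* had 226, 292 and 484 in WT and 102, 233 and 349 in KO, 0.56 lower (SE 0.27, adjusted p = 0.34). The KO embryos were far more spread than the WT embryos for *Smarca2*, with an SD of 213 around a mean of 235 against 53.5 around 199. A single library, KO library 6, held *Smarca2* at 752 while the next highest held 258. The same library had the lowest *Smarca4* of the KO group at 82.4 and the lowest *Smarcb1* at 54.3. Its summed oocyte markers of 5667 were the highest of the 2-cell libraries, against 883 to 3510 in WT. KO library 7, which had the highest cumulus and granulosa sum, was the highest for *Smarcb1* (310), *Pbrm1* (335), *Smarcc1* (317) and *Smarca4* (307) and the lowest for *Arid1a* (102). It also had the lowest summed markers of oocytes (193), 2-cell embryos (115) and mESCs (6.41) of all 2-cell libraries. The part of these marker RNAs in the members' values was not tested. Leaving out both libraries, or any library in turn, also gave 0 calls. With the spread of all 12 conditions *Smarcb1* (adjusted p = 0.0020) and *Arid1a* (0.026) passed.

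In blastocysts 0 of 10 members were called and 0 had an unadjusted p under 0.05 (limma, 0.00885% of all genes called), and edgeR and DESeq2 called 0. Over all genes tested, 173 of 11295 had an unadjusted p under 0.05 in limma. All 10 ranges overlapped. The largest differences were -0.14 for *Arid2* (SE 0.13) and -0.14 for *Smarca2* (SE 0.22). *Smarca4* had 98.1, 111 and 112 in WT and 99.5, 101 and 107 in KO pools, and *Smarcb1* had 121, 128 and 130 in WT and 124, 125 and 127 in KO.

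**Figure D4:**
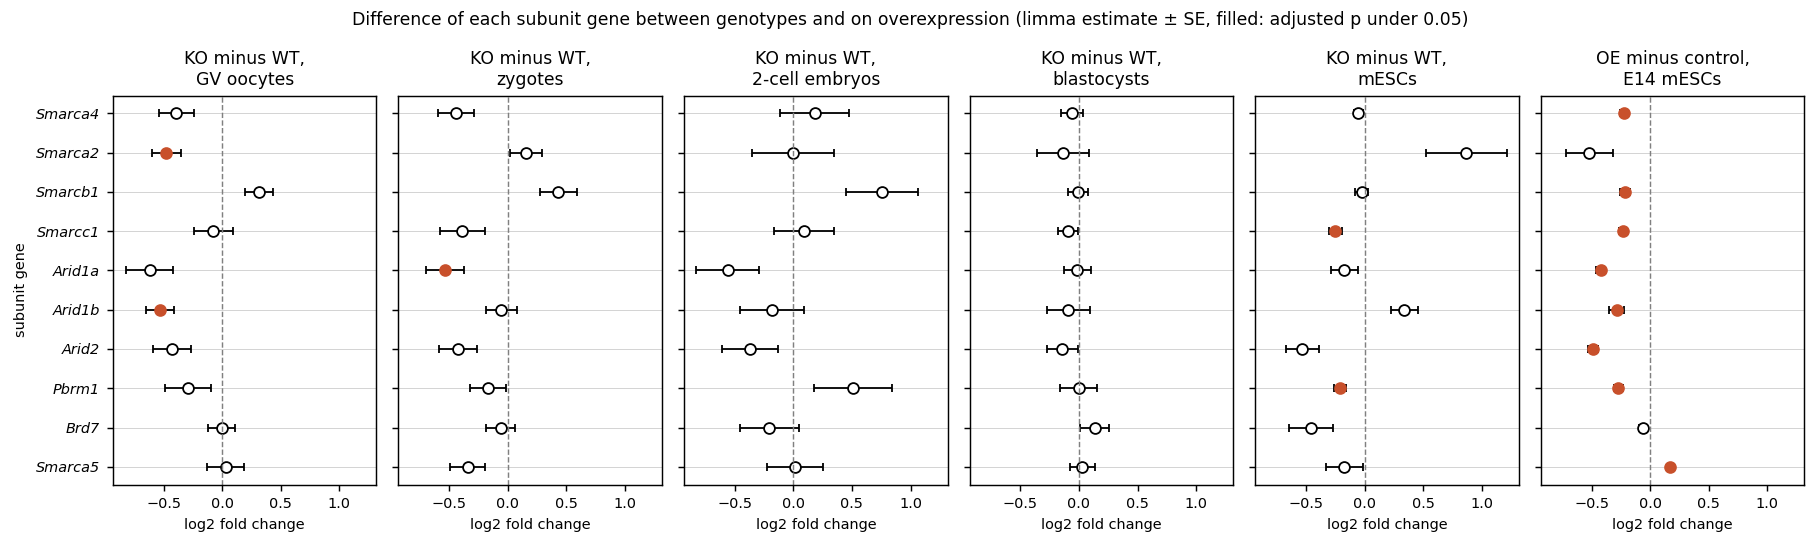
Fitted log2 difference (limma estimate ± SE) of each gene between KO and WT at 5 stages and between OE and control E14 cells, filled where the adjusted p is under 0.05. The filled points are *Smarca2* and *Arid1b* in GV oocytes, *Arid1a* in zygotes, *Smarcc1* and *Pbrm1* in mESCs, and 8 of 10 genes in OE cells, of which *Smarca5* is the only filled point above 0.

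In mESCs 2 of 10 members were called, against 13.9% of all genes. *Smarcc1* had 451, 490 and 518 in WT and 402, 410 and 414 in KO, lower by 0.25 (SE 0.06, adjusted p = 0.038). *Pbrm1* had 146, 147 and 149 in WT and 124, 127 and 132 in KO, lower by 0.21 (SE 0.05, adjusted p = 0.041). These ranges did not overlap. Both calls were lost without KO library 1, 2 or 3 or WT library 1 or 3 (adjusted p = 0.095 to 0.14 for *Smarcc1* and 0.054 to 0.18 for *Pbrm1*). They were also lost with near-identical libraries merged (0.22 and 0.26) and with the spread of all 12 conditions, and that of *Pbrm1* without a filter (0.055). *Arid2* had 113, 160 and 160 in WT and 93.7, 96.0 and 105 in KO, 0.53 lower (SE 0.14, adjusted p = 0.054). It passed with both rescalings, edgeR, DESeq2 and without WT library 2 (-0.70, adjusted p = 2.5e-04), and the range over all settings other than leaving out a library was 0.0039 to 1.0. The study had picked *Arid2* out as a changed gene in the mESC libraries, so its direction here is not independent evidence. *Smarca2* had 10.4, 10.9 and 12.8 in WT and 15.4, 16.2 and 39.7 in KO, 0.87 higher (SE 0.35, adjusted p = 0.15), and passed with DESeq2 (1.06, adjusted p = 0.030). Without WT library 2, *Arid1a* (-0.31, adjusted p = 0.0014), *Arid1b* (0.21, adjusted p = 0.024) and *Brd7* (-0.23, adjusted p = 0.037) passed as well. The summed level of 7 mESC markers was 3421 to 3912 in WT and 4237 to 4292 in KO, and its part in these differences was not tested. Of 18 other BAF and PBAF subunits tested 2 rose and 2 fell, among them *Smarcd3*, which encodes BAF60C, from 5.13 ± 1.81 to 14.8 ± 3.53 (SD, n = 3 each, adjusted p = 0.020).

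In E14 cells with FLAG-ZFP708, 8 of 10 members were called, 1 higher and 7 lower, while 49.9% of all genes were called. *Arid2* had 147, 150.4 and 155 in control and 102, 108 and 113 in OE cells, lower by 0.49 (SE 0.04, adjusted p = 1.4e-05). *Arid1a* had 379, 379 and 381 in control and 271, 279 and 299.6 in OE cells, lower by 0.42 (SE 0.04, adjusted p = 1.3e-05). These were the largest of the 7 decreases. *Arid1b* (-0.28), *Pbrm1* (-0.27), *Smarcc1* (-0.23), and *Smarca4* and *Smarcb1* (-0.22 each) were lower by less, with adjusted p from 2.4e-04 to 0.0043. *Smarca5* had 419, 430.4 and 433 in control and 477, 482 and 487 in OE cells, higher by 0.17 (SE 0.03, adjusted p = 5.7e-04). *Brd7* (-0.06, adjusted p = 0.17) and *Smarca2* (-0.52, adjusted p = 0.052, from 7 to 37 reads per library) did not pass, though *Smarca2* did without OE library 1 (-0.71, adjusted p = 0.014). The control libraries differed by little more than sampling noise. Merging near-identical libraries left a single control sample, so that fit cannot decide whether the 8 calls hold. All 8 changes kept their direction in it, with *Arid2* at -0.47 and *Arid1a* at -0.40. With the spread of all 12 conditions 0 of the 8 calls remained (adjusted p = 0.95 to 1.0). Of the other lists, 6 of 19 BAF and PBAF subunits rose and 8 fell. The summed level of 8 fibroblast markers was 96.6 to 104 in control and 12.9 to 19.9 in OE cells, with *Lum* and *Postn* at 0 in both and *Tagln* at 74.0 and 6.62, and that of 7 mESC markers was 2920 to 2980 and 3621 to 3921. The part of either in these differences was not tested.

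Between the mESC lines, 5 of 10 members differed (60.6% of all genes). Compared with WT mESCs, E14 control cells had lower *Smarca2* (-2.16, SE 0.14, adjusted p = 4.1e-05), *Arid1b* (-0.83, SE 0.11, adjusted p = 9.4e-04), *Smarca4* (-0.45, SE 0.03, adjusted p = 6.9e-05) and *Smarcb1* (-0.44, SE 0.05, adjusted p = 4.3e-04). *Pbrm1* was higher by 0.59 (SE 0.04, adjusted p = 3.6e-05), at 217, 224 and 226 against 146, 147 and 149. *Smarcc1* was also lower with both rescalings, edgeR and DESeq2 (-0.20 to -0.23, adjusted p = 0.0055 to 0.015). Without WT mESC library 2 all 10 passed. In that setting *Smarca5* was higher by 0.17 (adjusted p = 2.9e-06) and *Arid2* lower, at -0.08 (adjusted p = 0.023), the opposite directions of their uncalled differences of -0.03 and 0.08. With the spread of all 12 conditions 2 of the 5 calls were retained, *Smarca2* and *Arid1b*. Cell line, derivation and culture history cannot be told apart here.

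Correlations between members over the 12 condition means are given as a description, because the points share libraries and scaling. *Smarcc1* and *Pbrm1* had the highest correlation of the 45 pairs (Pearson r = 0.96), followed by *Smarca5* with *Pbrm1* (0.95) and *Smarca4* with *Smarcc1* (0.91), all lowest in GV oocytes. *Arid1a* and *Arid2* correlated at 0.90 and *Arid2* and *Brd7* at 0.87, all highest in WT zygotes. *Smarca2* and *Arid1b* correlated at 0.71. The most negative pairs were *Smarcb1* with *Brd7* (-0.85) and with *Arid2* (-0.84). Among 11872 genes, the 2 most like *Smarcc1* over these 12 means were *Fmr1* and *Cbfb* (0.996 each), those most like *Smarca4* were *Pogz* (0.99) and *Nap1l1* (0.99), and those most like *Pbrm1* were *Prpf4b* (0.99) and *Kif5b* (0.99). For *Smarca2* they were *Gng12* (0.99) and *Tesc* (0.98), and for *Arid1b* *Dnah10* and *Pid1* (0.97 each). *Arid1a* was most like *Nipbl* and *Smg6* (0.96 each), *Arid2* like *Bcl2l13* (0.96) and *Pom121* (0.95), and *Smarca5* like *Ube3c* (0.98) and *Ppp1cb* (0.97). *Smarcb1* was closest to *Pyurf* (0.95) and *Fam173b* (0.93), and *Brd7* to *Snrnp48* (0.93) and *Khdc4* (0.90).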

How the data were processed

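RNA-seq libraries from oocytes, embryos and mESCs (61 in 12 conditions) were analysed from a single table of gene values. Per the labels and the study's methods, reads were mapped to mm9 with STAR 2.4.2a, and the authors divided the gene counts by DESeq2 size factors, so each deposited value is a signal on a scaled count scale, called a normalized count here. The table had 18504 rows, of which 108 repeated a gene and were dropped. Dividing by the value of 1 read recovered whole reads for 100% of the values within 0.01. No sample column was left unused.

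Comparisons used limma 3.58.1 (R 4.3.3) on log2(value + 1), with a mean-variance trend and robust variances, on the libraries of the conditions compared and on genes that reached a value of 1 in enough libraries to fill the smaller group. Fold changes on this scale understate those of low genes. P-values were adjusted over all genes tested (Benjamini-Hochberg, threshold 0.05). Count tests on the recovered reads, edgeR 4.0.16 and DESeq2 1.42.0, were alternatives (for GV oocytes they called 434 and 992 genes, against 429 by limma). Ratios of subunit pairs used two-sided exact permutation tests. Other alternatives were pseudocounts of 0.1 and 5, other filters, size factors or TMM within a comparison, the spread of all 12 conditions, a replicate block, merging near-identical mESC libraries and leaving out each library. Leaving out KO 2-cell libraries 6 and 7 together was chosen after seeing the data. The fitting steps were tested on simulated data.

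All 10 members were named, and from each of 3 other lists up to 3 genes with the smallest p among calls that changed by 1 or more on the log2 scale. Likeness used genes with a mean of at least 10 in a condition. The members and lists were chosen with earlier results of these data known. The oocyte, zygote and 2-cell libraries were amplified from single cells or embryos without strand marking. Promoter sequences are from RefSeq.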

Additional observations from a re-analysis of the deposited data

Results flagged for a closer look

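In 60 groups of 7 or 8 libraries across the members, 8 had a library far from the others. A rate of about 1 in 20 would hold for independent, normally distributed values, whereas these are unlogged counts and the groups share libraries. Only the members were examined, so the 8 flags cannot show an excess over other genes. *Smarca2* was 326 in WT GV oocyte 6 (next 236) and 752 in KO 2-cell library 6 (next 258). *Smarca4* was 313.5 in WT 2-cell embryo 7 (next 185). *Smarcb1* was 77.0 in WT zygote 5 (next 61.6) and 310.1 in KO 2-cell library 7 (next 156). The same KO library held *Smarcc1* at 317 (next 208) and *Pbrm1* at 334.9 (next 184). *Brd7* was 67.0 in KO GV oocyte 5 (next 59.2). The GV oocyte to zygote change of *Smarca2* differed between genotypes by 0.63 on the log2 scale (KO minus WT, limma interaction, adjusted p = 0.035).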

How the results depend on the processing

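Counts below are members called by limma or the tool named. In GV oocytes the 2 calls became 1 without a filter, 0 with the spread of all 12 conditions, 1 with the replicate block and 1 to 4 without 1 library. In zygotes the 1 call became 0 without a filter, 2 with a filter at 10, with either rescaling and with edgeR, 3 with DESeq2, 0 with the spread of all 12 conditions and 0 to 4 without 1 library. In 2-cell embryos the 0 calls became 2 with the spread of all 12 conditions. In mESCs the 2 calls became 1 without a filter, 4 with DESeq2, 0 with the spread of all 12 conditions, 0 with the replicate block and 0 to 6 without 1 library. They also became 0 with libraries merged, where fewer samples entered. In OE cells the 8 calls became 0 with the spread of all 12 conditions. Merging left a single control sample there, so no count of calls is given for it. Between E14 and WT mESCs the 5 calls became 2 with the spread of all 12 conditions and 5 to 10 without 1 library, *Smarca5* running from -0.13 to 0.17 and *Arid2* from -0.084 to 0.17. The GV oocyte to zygote interaction had 0 to 1 calls without 1 library, and the 10 ratio calls became 8 to 12. The cause of these changes in count was not tested. Of 2350 single-gene results without 1 library, 2273 kept their side of the threshold, 53 lost the call, 22 gained it and 2 reversed direction. Directions were compared only for results called in either fit. Replicate numbers did not pair the libraries: no comparison had every pair correlated above 0.1 (r from -0.60 to 0.30), and in no comparison did every library correlate best with its own number. With the replicate block 141 of 150 member results were the same, and from WT 2-cell to blastocyst it added *Smarca4* (-0.50, adjusted p = 0.042) and *Pbrm1* (0.75, adjusted p = 0.013). Over all genes, calls moved by over 1.5 times as follows. In GV oocytes 429 became 194 without a filter, 992 with DESeq2, 63 with the spread of all 12 conditions and 209 with the replicate block, and in zygotes 1628 became 963 with that spread. In 2-cell embryos 89 became 9 with a pseudocount of 5, 54 without a filter, 12 with a filter at 10, 267 with edgeR, 917 with DESeq2, 3626 with that spread and 158 with the block. In blastocysts 1 became 0 without a filter, 3 with DESeq2 and 0 with that spread or the block. In mESCs 1658 became 108 with that spread, 804 with the block and 147 merged, and in OE cells 6121 became 210 with that spread. From KO 2-cell to blastocyst 5349 became 9658 with that spread, and TMM gave 3524 higher and 2347 lower against 2588 and 2761. E14 against WT gave 7512, and 1517 with that spread. The zygote to 2-cell interaction gave 199, 93 with a pseudocount of 5 and 380 with edgeR, and the 2-cell to blastocyst interaction gave 0, 4 with a pseudocount of 0.1 and 1 with edgeR. Rescaling moved the median of all genes by over 0.1 at 5 steps, most at WT and KO 2-cell to blastocyst (0.26 and 0.29 with TMM). Depth limits *Smarca2* in E14 cells, with 7 to 37 reads.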
